A study of Labrus bergylta with 77 samples.

Results

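Larvae of ballan wrasse (Labrus bergylta), a marine fish farmed to clean salmon of lice, were compared at sampling stage BW4 and at the preceding stage BW3, over all genes. All pools of the 2 stages were taken, 24 of the 77 pools of the series, each a pool of whole larvae of 1 rearing tank. The BW4 pools were 6 of the plankton diet (28 days post hatch, dph, standard length 7.1 to 7.2 mm) and 6 of the control diet (26 dph, 7.1 to 7.4 mm). The BW3 pools were 6 of the plankton diet (18 dph, 5.9 to 6.0 mm) and 6 of the control diet (16 dph, 5.7 to 6.1 mm). Plankton tanks (B5, B7 and B9) were fed zooplankton and control tanks (B6, B8 and B10) rotifers and Artemia. All 6 tanks were stocked with larvae of the same broodstock after hatching, and formulated feed came only after these stages. Larvae were taken by length and not by age, so BW4 larvae were both longer and older than BW3 larvae of the same diet, and the effects of length and age cannot be told apart. The study asks when lymphoid tissue forms, in organs and at mucosal surfaces, and whether early diets matter.

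Marine fish larvae hatch with eyes, gut and muscle that serve a short planktonic life, and these organs are rebuilt before the juvenile form is reached. In the retina, cone opsins are exchanged and rods are added. In the trunk, larval forms of the contractile proteins give way to later ones, and cartilage is followed by bone. The exocrine pancreas and liver grow as feeding becomes regular, while a stomach, where a species has one, forms late, and wrasses have none.

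RNA levels were deposited as TPM, a unit in which every library sums to the same total, so a rise of abundant transcripts lowers the share of all others. The 2 pools of a tank were averaged, and each stage has 6 tank values, which the text gives as their lowest, median and highest. A difference is BW4 minus BW3 on the log2(TPM + 1) scale, with its standard error, each diet weighted equally. Tests were made with limma, and a call means an adjusted p (Benjamini-Hochberg, all genes tested) under 0.05. Values of genes under a few TPM are shrunk by the added 1. Whole larvae were measured, so fewer cells of a type and less RNA per cell cannot be told apart.

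The 24 pools had 18836 to 19554 genes at 1 TPM or more. The pools of a tank correlated at 0.9629 to 0.9838 over genes. Pool B9 R2 of BW3 had the lowest mean correlation with its own stage (0.9554). Of 29 marker names for 11 tissues, 22 had a row in the table, 47 rows in all, of which 14 were called higher and 5 lower at BW4. Muscle, pancreas, intestine, liver, lens, retina, skin, blood and bone markers were present at both stages, and the neuronal marker elavl3 had 1.41 to 2.49 TPM in BW4 tanks, against 0.753 to 2.18 TPM in BW3 tanks. The markers of thymocytes, rag1 and rag2, had at most 0.0714 and 0.173 TPM in a BW4 tank, against at most 0.158 and 0.0684 TPM in a BW3 tank.

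Of 29932 genes in the table, 22028 passed the filter on low values and 6394 (29.0%) were called. Among those tested, 1379 (6.26%) were higher and 5015 (22.8%) lower at BW4. At least 2-fold differences made up 418 of the calls, 178 higher and 240 lower. The 6 tanks of each stage did not overlap in 19.8% of all genes tested (3.52% with BW4 higher, 16.3% with BW4 lower). The median difference of all genes was −0.12, which is the base against which a list is read. Of the called genes, 21.6% were higher and 78.4% lower on the TPM scale. When libraries were rescaled by median-ratio size factors, that median became 0 and the split was 51.2% higher (2498 genes) and 48.8% lower (2381 genes). Both counts are therefore given for the gene lists below, the rescaled one as such. The rescaled counts are to be read against the 2498 higher and 2381 lower of 22028 genes tested. The shares of 6.26% and 22.8% hold only for the TPM scale. The summed TPM of muscle genes, 112000 to 124000 in BW4 tanks against 71900 to 95500 in BW3 tanks, moved with this shift, and its part in the counts was not tested.

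**Figure D1:**
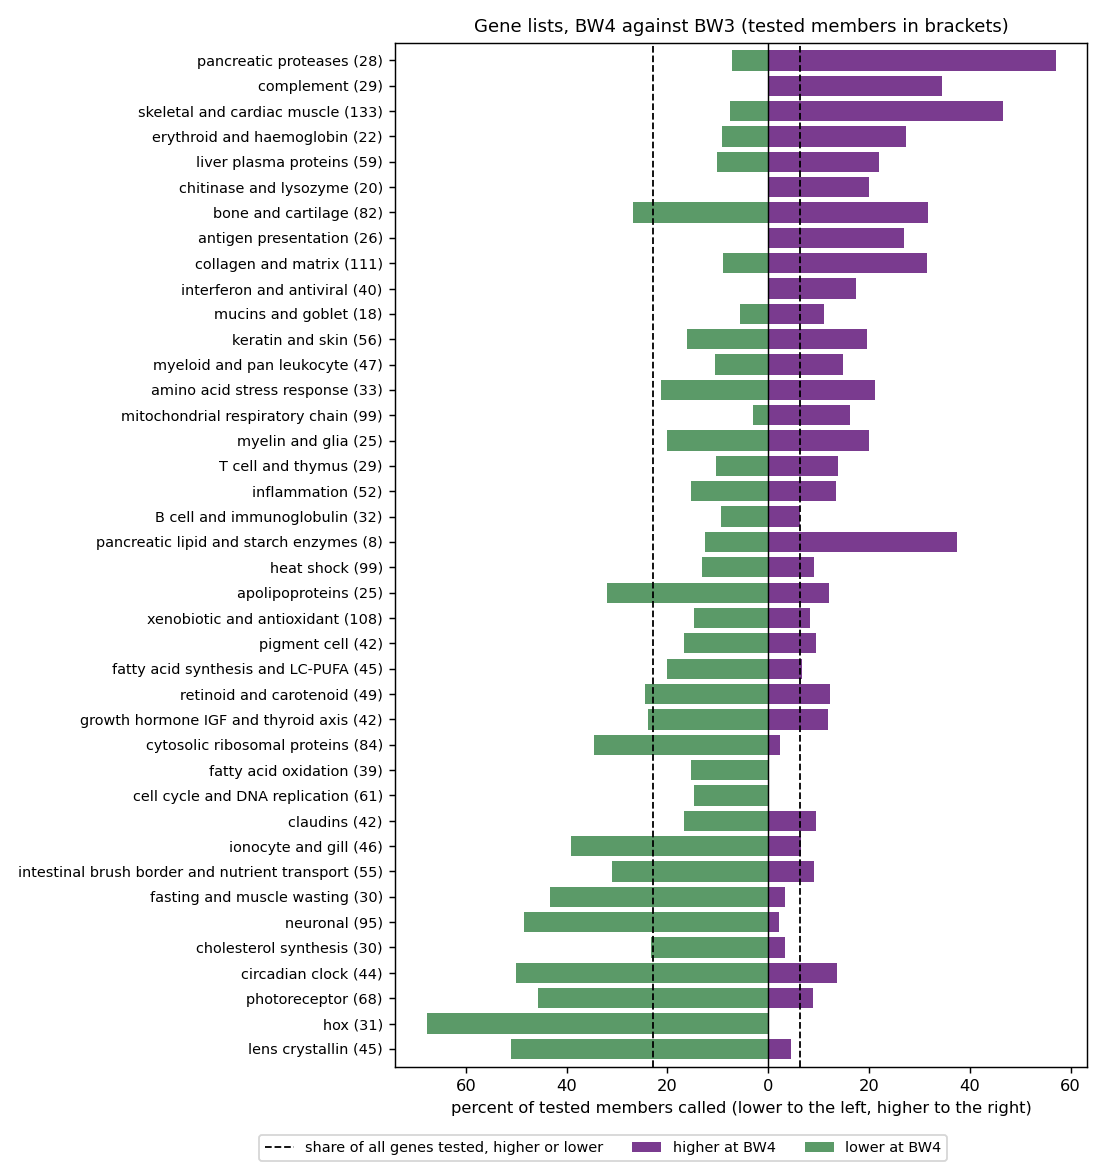
Bars give the percent of tested members of each of 40 gene lists called higher (right) or lower (left) at BW4 than at BW3, ordered by the list's median difference, and dashed lines mark the shares over all genes tested, 6.26% higher and 22.8% lower. Pancreatic proteases, muscle and complement stand at the top, and lens crystallins, hox and photoreceptor genes at the bottom.

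Muscle genes were, of the 40 lists, the one with the most rows called higher, although pancreatic proteases had a higher share (57.1% against 46.6%) and median (0.54 against 0.34). Of 133 tested members of the skeletal and cardiac muscle list, 62 were called higher and 10 lower (74 and 7 after rescaling), and 61 were not called. CASQ1 (LABE_00003820), the calcium store of the fast fibre's sarcoplasmic reticulum, had 60.6, 68.2 and 77.9 TPM in BW4 tanks, against 5.6, 7.35 and 10.8 TPM in BW3 tanks. The difference was 2.98 ± 0.15 (adjusted p = 4.19e-16). Myl3 (LABE_00056245), an essential myosin light chain of slow and cardiac fibres in mammals, had 10.8, 12.7 and 15.2 TPM at BW4, against 0.309, 0.68 and 1.69 TPM at BW3 (difference 2.96 ± 0.14, adjusted p = 7.39e-17). A fast skeletal myosin heavy chain (LABE_00072595), the motor of fast fibres, rose by 1.54 ± 0.10 to 741, 870 and 933 TPM in BW4 tanks, against 244, 287 and 379 TPM in BW3 tanks. All 3 genes were again higher at BW5, at mean levels of 748, 53.1 and 2460 TPM.

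Copies of 1 muscle gene differed in opposite directions. TNNI2 is troponin I of fast fibres, the subunit that blocks contraction without calcium, and the table has a run of rows under that name. The copy LABE_00018571 fell to 26, 46.9 and 69.2 TPM in BW4 tanks, against 234, 307 and 530 TPM in BW3 tanks (difference −2.84 ± 0.18, adjusted p = 3.65e-13). It had averaged 2590 TPM at BW0 and was down to 5.76 TPM at BW5. The copy LABE_00018577 rose to 971, 1120 and 1250 TPM in BW4 tanks, against 237, 330 and 435 TPM in BW3 tanks (difference 1.73 ± 0.115, adjusted p = 7.23e-13). The most abundant copy, LABE_00018573, had 3210, 3700 and 3920 TPM against 2420, 2590 and 2860 TPM and did not pass (0.47 ± 0.209, adjusted p = 0.0943), although the tanks of the 2 stages did not overlap. This copy was called higher in 3 of 18 alternatives. Of 12 rows named TNNI1, TNNI2 or TNNI3, 4 were called higher and 4 lower, and their sum was 4930 to 5630 TPM in BW4 tanks, against 3490 to 4090 TPM in BW3 tanks. Reads of near-identical copies may be split between them by the quantification, so single copies are uncertain. The alpha-actin row with the highest level, acta1 (LABE_00000207), rose by 0.45 ± 0.0862 to 22600, 24200 and 24600 TPM at BW4, against 14900, 17300 and 22200 TPM at BW3. Of the regulatory light chain MYLPF, the lesser copy (LABE_00039352) rose by 1.56 ± 0.103, while the main copy (LABE_00002060) had 10200, 10700 and 11000 TPM against 7860, 8710 and 10600 TPM (0.26 ± 0.148, adjusted p = 0.189). That main copy was called higher in 2 of 18 alternatives. The call of TNNI1 (LABE_00018765, −0.36) was lost after rescaling (adjusted p = 0.275), that of TNNI2 (LABE_00018568, 0.43) without tank B7 (adjusted p = 0.05), and that of TNNI2 (LABE_00028622, −0.79) without tank B5 (adjusted p = 0.0653). The troponin, acta1 and MYLPF rows, other than LABE_00018571, were picked after their values were seen.

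**Figure D2:**
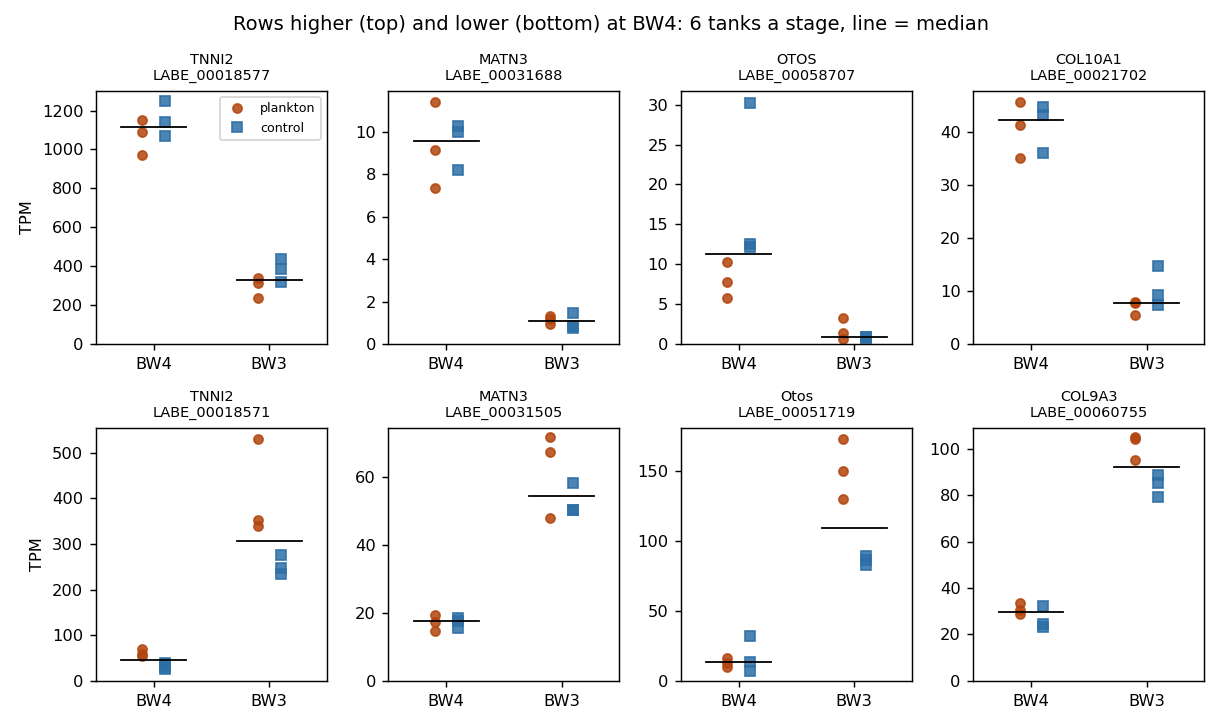
TPM in each of the 6 tanks at BW4 (left of each panel) and BW3 (right), plankton tanks as circles and control tanks as squares, with a line at the median. The top row holds rows higher at BW4, TNNI2, MATN3, OTOS and COL10A1, and the bottom row holds rows lower at BW4, the other copies of TNNI2, MATN3 and Otos and the cartilage collagen COL9A3.

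The skeleton list was split. Of 82 bone and cartilage genes, 26 were called higher (31.7%) and 22 lower (26.8%), 31 and 16 after rescaling. Over all genes tested 6.26% were higher and 22.8% lower on the TPM scale. COL10A1 (LABE_00021702), the collagen of hypertrophic cartilage and, in fish, of bone-forming cells, had 35.1, 42.2 and 45.7 TPM at BW4, against 5.57, 7.85 and 14.8 TPM at BW3 (2.18 ± 0.206, adjusted p = 1.93e-09). Osteocalcin, bglap (LABE_00065594), a protein of mineralising bone, had 16.1, 18.7 and 23.5 TPM against 1.83, 3.42 and 6.54 TPM (2.14 ± 0.201, adjusted p = 1.73e-09). The tanks of the stages were apart for both rows. The other 4 rows of the type X collagen and osteocalcin families did not pass, and a second COL10A1 row (LABE_00049530) was at −0.59 ± 0.239 (adjusted p = 0.0643). Type I collagen, the main fibre of bone, tendon and skin, rose in 5 of 8 rows, and its sum was 3950 to 5490 TPM in BW4 tanks against 2010 to 3000 TPM in BW3 tanks. Its row with the largest difference, Col1a2 (LABE_00016965), rose by 1.86 ± 0.14 to 61.8, 72.9 and 90.2 TPM, against 11.1, 19.8 and 33.9 TPM at BW3. Tenomodulin, TNMD (LABE_00038827), a marker of tendon cells, rose by 1.59 ± 0.14 to 29, 34.7 and 40.1 TPM at BW4, against 5.69, 11.3 and 15.2 TPM at BW3.

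Of 18 rows named for the cartilage collagens II, IX and XI, 8 were called lower and 4 higher, and their sum overlapped, at 1820 to 2220 TPM in BW4 tanks against 2020 to 2440 TPM in BW3 tanks. Of these, COL2A1 (LABE_00022018) was not called after rescaling (adjusted p = 0.318) or without tank B6, B7, B8 or B9 (0.0875, 0.146, 0.153 and 0.0933), and Col11a2 (LABE_00065423) not with 0.1 added in place of 1 (adjusted p = 0.0575), without tank B5, B6, B7, B9 or B10 (0.112, 0.107, 0.0561, 0.0639 and 0.0695) or without pool B9 R2 of BW3 (0.0588). All 6 type IX collagen rows were among those that fell, the largest change being COL9A3 (LABE_00060755), with 23.2, 29.7 and 33.7 TPM at BW4 against 79, 92 and 105 TPM at BW3 (−1.66 ± 0.183, adjusted p = 4.54e-08). The main type II collagen row, Col2a1 (LABE_00059853), went the other way, with 582, 748 and 832 TPM against 253, 471 and 566 TPM (0.74 ± 0.187, adjusted p = 0.00336). Matrilins link collagen fibrils in cartilage. MATN3 had 1 copy (LABE_00031505) that fell by 1.68 to 14.8, 17.6 and 19.3 TPM at BW4, against 47.9, 54.4 and 71.8 TPM at BW3 (adjusted p = 2.77e-10), and 1 copy (LABE_00031688) that rose by 2.33 ± 0.17 to 7.36, 9.57 and 11.4 TPM, against 0.771, 1.09 and 1.47 TPM (adjusted p = 4.23e-12). Both copies of Matn4 fell, by 1.11 (LABE_00071554) and 1.05 (LABE_00077851). The type II and IX collagen and Matn4 rows were singled out after their values were seen.

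Of 111 tested genes of other collagens and the matrix, 35 rose (31.5%) and 10 fell (9.01%), 41 and 4 after rescaling. Over all genes tested 6.26% rose and 22.8% fell. LOX (LABE_00008771), the enzyme that starts the cross-linking of collagen and elastin, rose by 1.42 ± 0.11 (adjusted p = 2.94e-11), with 63.9, 69.7 and 76.7 TPM at BW4 against 18.9, 26 and 31.6 TPM at BW3. Its relative LOXL4 (LABE_00055870) rose by 1.52 ± 0.13 and decorin, DCN (LABE_00054672), a proteoglycan on collagen fibrils, by 0.92 ± 0.12. COL21A1 (LABE_00059096), a fibril-associated collagen, fell by 1.06. The count of 10 falls was 4 to 6 without tank B5, B7, B8 or B9.

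In the eye, cone opsins differed in opposite directions. The red-sensitive opsin (LABE_00074842), the long-wavelength cone pigment, was the gene with the largest rise of those named. It had 35.7, 74.3 and 90.4 TPM in BW4 tanks, against 0, 0.0733 and 0.278 TPM in BW3 tanks, so that it was near 0 in all BW3 tanks and present in all BW4 tanks. The red-sensitive opsin's difference was 5.91 ± 0.13 (adjusted p = 5.33e-26), a size that depends on the added 1, and it was 8.59 with 0.1 added. The blue-sensitive opsin (LABE_00016159) had 6.53, 9.09 and 12.1 TPM at BW4, against 0.0725, 0.641 and 1.16 TPM at BW3 (2.60 ± 0.13, adjusted p = 9.14e-16). One of the 3 green-sensitive opsin rows (LABE_00050805) fell by 3.06 (SE 0.14, adjusted p = 5e-17), to 1.27, 2.33 and 4.56 TPM at BW4 against 20.8, 27.5 and 36.6 TPM at BW3. Its mean had been 1700 TPM at BW0. The 2 abundant green-sensitive rows did not pass. LABE_00064357 was called lower in 2 of 18 alternatives and LABE_00064356 in 3. LABE_00064357 had 618, 771 and 992 TPM at BW4 against 1220, 1310 and 2220 TPM at BW3, with no overlap (−0.90 ± 0.46, adjusted p = 0.144), and LABE_00064356 had 300, 361 and 477 TPM against 471, 538 and 844 TPM (−0.61 ± 0.27, adjusted p = 0.0843). The mean of LABE_00064357 was 1450 TPM at BW3, 771 TPM at BW4 and 100 TPM at BW5, and that of LABE_00064356 was 577, 375 and 101 TPM.

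Other opsins moved little. A further middle-wavelength row, opn1mw4 (LABE_00064355), had 64.6, 76.8 and 86.7 TPM at BW4 against 49.9, 54.3 and 70.5 TPM at BW3 (adjusted p = 0.0539). It was called higher in 6 of 18 alternatives. The violet-sensitive rows had differences of −0.01 ± 0.31 (LABE_00063137) and −0.23 ± 0.16 (LABE_00071645), neither past the test. The pineal pigments had at most 2.1 TPM in any tank. Parapinopsin (LABE_00050832) was called lower by 0.34, and not after rescaling (adjusted p = 0.132), with 0.1 added in place of 1 (0.128) or without tank B5, B6 or B9 (0.0589, 0.115 and 0.0935). The pinopsin row LABE_00020029 was called lower by 0.26, and not after rescaling (adjusted p = 0.11), with the tank as a block (0.0635), in a fit of BW3 and BW4 alone (0.0692), with the tank as a block in a fit of these stages alone (0.0963), without tank B5, B6, B7, B8 or B9 (0.196, 0.267, 0.057, 0.0523 and 0.0643), without the BW3 pools of tank B5 (0.0752) or without pool B9 R2 of BW3 (0.0533). The other pinopsin row (LABE_00015619, −0.37 ± 0.15, adjusted p = 0.0536) and a pineal opsin (LABE_00051813, −0.24 ± 0.12, adjusted p = 0.133) did not pass. That pinopsin row was called lower in 6 of 18 alternatives.

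**Figure D3:**
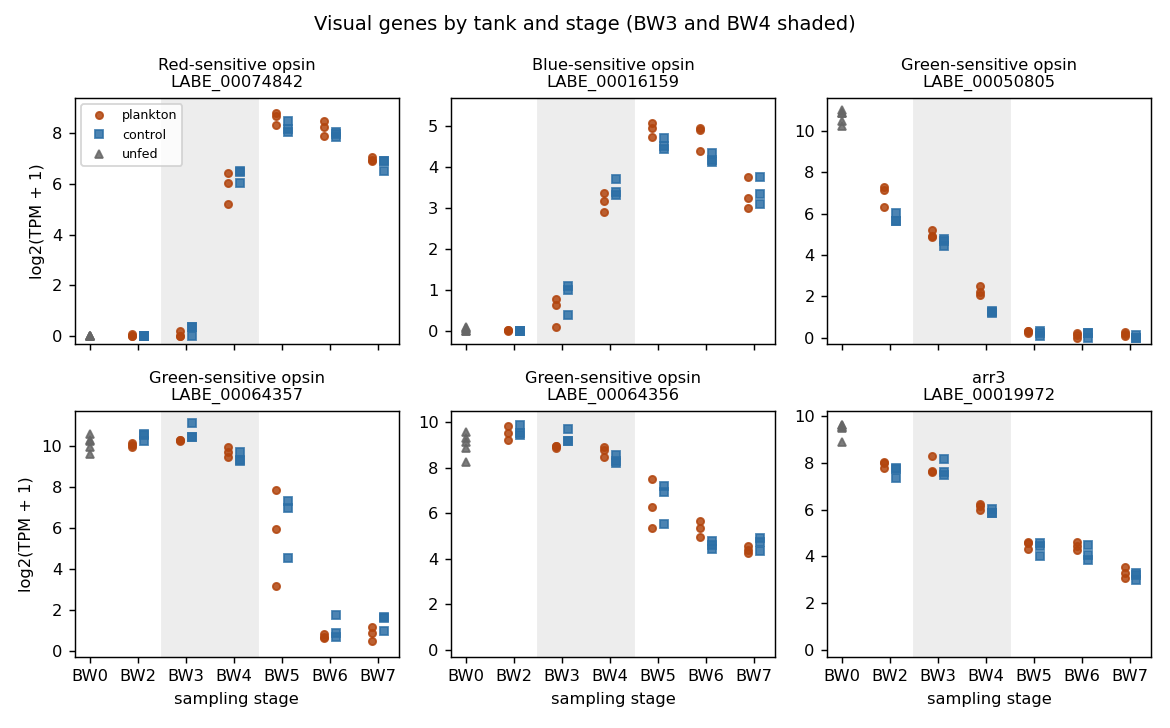
Each point is 1 tank (at BW0, 1 incubator pool) on the log2(TPM + 1) scale against sampling stage, plankton tanks as circles, control tanks as squares and unfed pools as triangles, with BW3 and BW4 shaded. The red- and blue-sensitive opsins leave the floor between BW3 and BW4 in all tanks, while the green-sensitive row LABE_00050805 and cone arrestin arr3 are falling.

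Genes that carry the cone signal were lower as well. Of 68 photoreceptor genes, 31 were called lower and 6 higher (28 and 9 after rescaling), with a median difference of −0.43, and 3 were higher without tank B7. Cone arrestin, arr3 (LABE_00019972), which shuts off the activated opsin, had 56.5, 62.5 and 75.6 TPM at BW4, against 178, 197 and 315 TPM at BW3 (−1.79 ± 0.14, adjusted p = 3.05e-11). CNGB3 (LABE_00062324), a subunit of the cone channel, fell by 1.53, to 2.38, 2.83 and 3.27 TPM against 6.31, 9.35 and 16.4 TPM. The cone transducin GNAT2 (LABE_00012971) fell by 0.95, to 120, 135 and 172 TPM against 226, 240 and 360 TPM. Retinoid genes include those of the visual cycle, and 12 of 49 fell (24.5%) while 6 rose (12.2%), 10 and 6 after rescaling. Over all genes tested 22.8% fell and 6.26% rose, so the share of falls was near that of all genes on the TPM scale. After rescaling, 10 of 49 is a higher share than the 2381 of 22028 genes that fell. The median of the retinoid list was −0.09. Here the retinol dehydrogenases rdh10 (LABE_00007192), rdh10a (LABE_00003158) and RDH8 (LABE_00002804) fell by 1.43, 0.78 and 0.89. Bco2 (LABE_00037806), which cleaves carotenoids, rose by 1.59 ± 0.33 but its tanks overlapped, with 11.8, 34.7 and 97.2 TPM against 1.84, 12.2 and 36.3 TPM.

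Lens crystallins, the proteins that fill the lens, were lower in 23 of 45 tested rows and higher in 2, with a median of −0.63. Gamma-crystallin M2 (LABE_00021723) had 446, 746 and 834 TPM at BW4 against 1050, 1430 and 2590 TPM at BW3 (−1.20 ± 0.24, adjusted p = 0.000305), and Gamma-crystallin M3 (LABE_00066474) fell by 1.11. The lens membrane protein Lim2 (LABE_00015408) fell by 0.91. Crystallin J1B (LABE_00041839) rose by 0.46 ± 0.11. After rescaling 7 were lower and 2 higher. The falling count was 14 without tank B6 and 10 without tank B9. It was 20 in control tanks alone and 1 in plankton tanks alone. Gamma-crystallin M2 and M3 were not called in plankton tanks alone (adjusted p of 0.108 and 0.138).

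Neuronal genes were lower in 46 of 95 rows and higher in 2, with a median of −0.31. SYT1 (LABE_00051161), the calcium sensor of transmitter release, had 8.79, 9.43 and 12.1 TPM at BW4, against 18.2, 20.9 and 34.6 TPM at BW3 (−1.11 ± 0.14, adjusted p = 4.47e-07). CPLX4 (LABE_00034157), a complexin of retinal ribbon synapses in mammals, fell by 0.95 and chat (LABE_00010620), which makes acetylcholine, by 0.69. The neurofilament nefl (LABE_00063735) rose by 0.47 ± 0.11. After rescaling 27 were lower and 2 higher, and without tank B6 28 were lower. Glial genes went both ways, with 5 of 25 higher (20%) and 5 lower (20%), 5 and 4 after rescaling, and 3 higher without tank B7. The shares over all genes tested were 6.26% and 22.8%. Myelin basic protein, mbp (LABE_00032904), rose by 0.66 ± 0.13 to 37.3, 37.9 and 41.1 TPM, against 20, 24.9 and 27.4 TPM at BW3. S100B (LABE_00056315), a calcium-binding protein of glia and cartilage, rose by 0.83 ± 0.14. The glutamate transporters of astrocytes were split, with Slc1a3 (LABE_00028324) higher by 0.40 ± 0.09 and Slc1a2 (LABE_00042930) lower, at 1.07, 2.65 and 3.07 TPM against 5.48, 8.25 and 18.1 TPM (−1.57 ± 0.22, adjusted p = 3.82e-06).

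Hox genes, which set position along the body axis in the embryo, were lower in 21 of 31 rows and higher in none (16 and 0 after rescaling), with a median of −0.57. The summed level of the list was 178 to 202 TPM in BW4 tanks, against 268 to 335 TPM in BW3 tanks. hoxc4a (LABE_00018814) had 5.21, 5.53 and 5.84 TPM against 10.7, 12.1 and 12.8 TPM (−0.97 ± 0.07, adjusted p = 8.5e-13). hoxb5b (LABE_00047046) fell by 1.01 and hoxb5a (LABE_00052800) by 0.72. Tanks of a stage differed little in these genes. Cell cycle and DNA replication genes were lower in 9 of 61 rows and higher in none, a share below that of all genes. After rescaling 3 were lower and 1 higher. The 9 became 4 without tank B5, B8 or B10, and 5 without the BW3 pools of tank B5. In control tanks alone 0 were called lower, and in plankton tanks alone 11. The replication licensing genes mcm2 (LABE_00073149), MCM2 (LABE_00061151) and ORC1 (LABE_00057635) fell by 0.54, 0.50 and 0.53. Their differences were −0.8, −0.79 and −0.8 in plankton tanks. In control tanks they were −0.27, −0.2 and −0.25, and not called (adjusted p of 0.27, 0.499 and 0.32). The contrasts of the diets did not pass (adjusted p of 0.807, 0.82 and 0.793).

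Digestive proteases of the pancreas were called higher in 16 of 28 rows and lower in 2 (17 and 0 after rescaling), with a median of 0.54. Cela3b (LABE_00001000), an elastase, had 61.9, 128 and 185 TPM at BW4, against 18.7, 25.6 and 55.1 TPM at BW3 (2.06 ± 0.21, adjusted p = 7.59e-09). A trypsin row (LABE_00023343) rose by 1.39 ± 0.19, to 49.3, 149 and 229 TPM against 30.4, 40.6 and 96.9 TPM. The chymotrypsin-like CTRL (LABE_00023322) rose by 0.96 ± 0.19, to 530, 1020 and 1490 TPM against 344, 469 and 758 TPM. The elastase row Cela2a (LABE_00010357) was called lower (−1.01 ± 0.30, adjusted p = 0.0108), and not after rescaling (adjusted p = 0.0583) or without tank B9 (0.0724). BW4 tanks differed widely in this group, and the summed protease level ran from 9600 to 28600 TPM at BW4, against 9480 to 17400 TPM at BW3. The rises were larger in plankton tanks, for CTRL 1.49 in plankton tanks and 0.43 in control tanks, but the difference between diets did not pass (adjusted p = 0.638). Without tank B9, 9 proteases were called higher, and 10 in a fit of BW3 and BW4 alone. In control tanks alone 5 were called higher, and in plankton tanks alone 20. CTRL was not called in control tanks alone (adjusted p = 0.296).

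The other pancreatic enzymes were 8 rows, of which 3 rose and 1 fell (4 and 1 after rescaling, 2 and 4 without pool B9 R2 of BW3). In control tanks alone 0 rose and 4 fell, and in plankton tanks alone 4 rose and 0 fell. The phospholipase PLA2G1B (LABE_00009956) rose by 0.98 ± 0.21, to 351, 908 and 1510 TPM against 315, 345 and 762 TPM. It was not called in control tanks alone (adjusted p = 0.482). The lipase CEL (LABE_00020613) was called higher by 0.59 ± 0.18, and not in a fit of BW3 and BW4 alone (adjusted p = 0.0655), with the tank as a block in a fit of these stages alone (0.0729) or without tank B9 (0.1). A second PLA2G1B row (LABE_00011185) was called higher by 0.53 ± 0.19, and not in a fit of BW3 and BW4 alone (adjusted p = 0.0845), with the tank as a block in a fit of these stages alone (0.0954), without tank B6, B8, B9 or B10 (0.061, 0.0819, 0.261 and 0.0906) or without pool B9 R2 of BW3 (0.139). The difference of CEL was 1.22 in plankton tanks and −0.05 in control tanks, and that of the second PLA2G1B row 1.14 and −0.07, and neither contrast of the diets passed (adjusted p = 0.287 and 0.447). Pancreatic alpha-amylase (LABE_00000698), which digests starch, fell by 1.20 (SE 0.22, adjusted p = 9.52e-05), to 88.2, 195 and 422 TPM at BW4 against 306, 375 and 730 TPM at BW3, with overlapping tanks. It was not called in plankton tanks alone (adjusted p = 0.429). Its mean had been 1400 TPM at BW0.

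In the intestine, 17 of 55 brush border and transport genes fell (30.9%) and 5 rose (9.09%), 13 and 7 after rescaling, with a median of −0.26. The shares over all genes tested were 22.8% and 6.26%. LCT (LABE_00037611), which is lactase in mammals, fell by 2.40 (SE 0.18, adjusted p = 2.24e-11), to between 0.134 and 2.36 TPM at BW4, against between 4.33 and 16 TPM at BW3. The neutral amino acid transporter Slc6a19 (LABE_00034446) fell by 1.12, to 17.7, 21.8 and 28.9 TPM against 44.1, 48.4 and 64.7 TPM. Npc1l1 (LABE_00014401), which takes up cholesterol, fell by 0.95. mogat2-b (LABE_00065682), which rebuilds absorbed fat, was higher by 0.35 ± 0.12, and lost the call without tank B5, B6, B7 or B8 (adjusted p of 0.0797, 0.0861, 0.0645 and 0.0579). Without tank B5, B6, B7, B8 or B9, 1 or 2 members were called higher. The summed level of the list was 2930 to 3450 TPM at BW4, within the 2580 to 3820 TPM of BW3.

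Liver plasma protein genes rose in 13 of 59 rows (22%) and fell in 6 (10.2%), 19 and 4 after rescaling. Over all genes tested 6.26% rose and 22.8% fell. AHSG (LABE_00004059), fetuin, a serum protein that binds calcium phosphate, had 9.77, 15.9 and 24.7 TPM at BW4, against 2.31, 3.26 and 4.64 TPM at BW3 (1.99 ± 0.14, adjusted p = 1.47e-12). A second AHSG row (LABE_00041427) rose by 1.08 ± 0.18. Transthyretin, TTR (LABE_00040484), a carrier of thyroid hormone, rose by 1.10 ± 0.17 to 39.6, 53.1 and 79.8 TPM, against 24.3, 25.9 and 27.5 TPM. Complement genes, made largely in the liver, rose in 10 of 29 rows and fell in none (14 and 0 after rescaling), with a median of 0.35. The pore component c8b (LABE_00004162) rose by 0.98 ± 0.19. A further pore component, c9 (LABE_00056674), was called (0.94 ± 0.29, adjusted p = 0.0151), and was not without tank B7 or B10 (adjusted p of 0.0928 and 0.0935). Without tank B7, 5 complement rows were called.

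Apolipoproteins carry lipids in blood and between cells, and 3 of 25 rows rose (12%) and 8 fell (32%), 4 and 8 after rescaling. Over all genes tested 6.26% rose and 22.8% fell. apoeb (LABE_00047833) rose by 2.72 ± 0.17 (adjusted p = 2e-13), to 29.7, 70.6 and 142 TPM against 3.9, 9.87 and 19.9 TPM at BW3. Its mean rose on to 568 TPM at BW7. All 3 rows of apolipoprotein D fell, by 0.97 (APOD, LABE_00018911), 1.64 (LABE_00086126) and 1.71 (LABE_00083710). LABE_00086126 and LABE_00083710 were not called in plankton tanks alone (adjusted p of 0.0767 and 0.13). LABE_00083710 had 23.1, 84 and 297 TPM at BW4 against 149, 213 and 492 TPM at BW3, and a mean of 7.99 TPM at BW5.

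The 3 lists of lipid metabolism had shares of falls and rises near or below those of all genes on the TPM scale (22.8% and 6.26%). In cholesterol synthesis and uptake 7 of 30 rows fell (23.3%) and 1 rose (3.33%), 3 and 1 after rescaling, and the falls were 3 or 4 without tank B5, B7, B8 or B10, and 4 without the BW3 pools of tank B5. ldlr-a (LABE_00060128), a low-density lipoprotein receptor, fell by 1.94 (SE 0.27), to 2.86, 4.56 and 8.58 TPM against 14, 22.5 and 26.1 TPM. Of 2 rows of the sterol desaturase Sc5d, LABE_00026540 rose by 0.88 ± 0.14. The other, LABE_00057134, was called lower (−0.56 ± 0.17), and not without tank B7, B8 or B10 (adjusted p of 0.071, 0.0604 and 0.0555). The sterol reductase Lbr (LABE_00051910) was called lower by 0.32, and not after rescaling (adjusted p = 0.138).

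In fatty acid synthesis 9 of 45 rows fell (20%) and 3 rose (6.67%), 7 and 6 after rescaling. The lipin row Lpin1 (LABE_00032581), a phosphatidate phosphatase, fell by 0.98, its second copy (LABE_00000274) by 1.17 and the desaturase-like Fads6 (LABE_00068431) by 1.26. mid1ip1b (LABE_00018405), a regulator of acetyl-CoA carboxylase, rose by 2.69 ± 0.39, with 426, 675 and 1260 TPM at BW4 and a wide 13.2, 237 and 678 TPM at BW3. It was not called in plankton tanks alone (adjusted p = 0.229). Fatty acid oxidation genes fell in 6 of 39 rows (15.4%) and rose in none, and 2 fell and 1 rose after rescaling. The falls were 2 or 3 without tank B5, B6, B8, B9 or B10, and 3 with no filter on low values or without the BW3 pools of tank B5. The carnitine carrier Slc25a20 (LABE_00059114) fell by 0.53 and the coactivator PPARGC1A (LABE_00009809) by 0.48. Hadh (LABE_00006961), an enzyme of the oxidation cycle, was called lower by 0.15. It was not called after rescaling (adjusted p = 0.986) or without tank B5, B6, B8 or B9 (0.0716, 0.0631, 0.0712 and 0.0736), and its difference after rescaling was 0.00.

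Genes known to rise in fasting were lower in 13 of 30 rows and higher in 1 (11 and 2 after rescaling), with a median of −0.26. Both IGFBP1 rows, which bind and hold insulin-like growth factors, fell. LABE_00004774 had 5.55, 6.28 and 8.81 TPM at BW4 against 10.8, 24.2 and 32.3 TPM at BW3 (−1.41 ± 0.23), and LABE_00001954 had 2.61, 11.3 and 21.3 TPM against 14.6, 33.1 and 65.1 TPM (−1.62 ± 0.35). Map1lc3b (LABE_00036768), a marker of autophagosomes, fell by 0.44. G6pc2 (LABE_00036580) rose by 0.58 ± 0.16 at about 1 TPM. Without tank B9, 7 members were called lower. In control tanks alone 14 were called lower, and in plankton tanks alone 1. IGFBP1 LABE_00001954 and Map1lc3b were not called in plankton tanks alone (adjusted p of 0.39 and 0.264). G6pc2 was not called in control tanks alone (adjusted p = 0.174). In the growth hormone and thyroid axis 10 of 42 rows fell (23.8%) and 5 rose (11.9%), 7 and 8 after rescaling. Over all genes tested 22.8% fell, so the share of falls was near that of all genes on the TPM scale, and 6.26% rose. After rescaling, 7 of 42 is a higher share than the 2381 of 22028 genes that fell. Thyroglobulin, Tg (LABE_00062441), the protein from which thyroid hormone is made, rose by 1.92 ± 0.23 (adjusted p = 1.87e-07), to 18.5, 39.1 and 48.8 TPM against 7.05, 7.48 and 11.9 TPM. Klf9 (LABE_00005176), a transcription factor induced by thyroid hormone and glucocorticoids, fell by 1.66 (SE 0.28), to 2, 3.85 and 5.56 TPM against 9.43, 13.2 and 17.3 TPM. The prolactin receptor prlr (LABE_00034172) fell by 1.01 and the growth hormone receptor GHR (LABE_00020448) by 0.75. GHR was not called in plankton tanks alone (adjusted p = 0.446). Without tank B5, 6 members were called lower, and 3 were called higher under the stricter filter.

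Of 33 amino acid stress genes 7 were called higher (21.2%) and 7 lower (21.2%), 9 and 6 after rescaling. Over all genes tested 6.26% were higher and 22.8% lower. In control tanks alone 6 were called higher and 3 lower, and in plankton tanks alone 1 and 4. chac1 (LABE_00013226), which breaks down glutathione, was called higher by 2.06 ± 0.16, with 234, 816 and 1590 TPM at BW4 against 82.4, 161 and 249 TPM at BW3. Its change differed between diets and is given with those genes. ass1 (LABE_00048774), of arginine synthesis, rose by 0.86 ± 0.15 and Aldh18a1 (LABE_00051286), of proline synthesis, by 0.78 ± 0.16. Neither was called in plankton tanks alone (adjusted p of 0.117 and 0.302). SLC3A2 (LABE_00049274), the heavy chain of amino acid exchangers, fell by 1.54 (SE 0.18), to 1.81, 1.98 and 2.25 TPM against 5.07, 7.77 and 10.8 TPM. Without tank B9, 4 members were called lower.

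Cytosolic ribosomal proteins made up 267000 to 280000 TPM in BW4 tanks, against 281000 to 315000 TPM in BW3 tanks. Of 84 rows, 29 were called lower and 2 higher, and 0 lower and 4 higher after rescaling, so that the direction of this family rests on the scale. RPL6 (LABE_00036162) was lower by 0.25, and not called after rescaling (adjusted p = 0.58). For rps3 (LABE_00061717) the difference was −0.31, not called after rescaling (adjusted p = 0.43), and for Rpl3 (LABE_00052464) −0.34, not called after rescaling (adjusted p = 0.185). Without tank B6, B7, B8 or B9 the count was 15 to 18. A second row, RPL3 (LABE_00020927), known in mammals from a muscle form of this protein, rose by 0.78 ± 0.11 to 302, 317 and 367 TPM, against 143, 186 and 237 TPM at BW3. In the mitochondrial respiratory chain 16 of 99 rows rose (16.2%) and 3 fell (3.03%), 22 and 1 after rescaling. Over all genes tested 6.26% rose and 22.8% fell. COX7A2 (LABE_00063558), a subunit of cytochrome c oxidase, rose by 2.02 ± 0.30, to 20.1, 22.3 and 25.2 TPM against 3.98, 5.86 and 8.07 TPM, with a mean of 639 TPM at BW5. ATP5L (LABE_00019039), of ATP synthase, rose by 0.24 ± 0.05. The 2 ndufa4 rows went opposite ways, 0.45 ± 0.09 (LABE_00002043) and −0.28 ± 0.07 (LABE_00059231), and the copy that was lower was not called after rescaling (adjusted p = 0.425).

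Haemoglobin and red cell genes were higher in 6 of 22 rows (27.3%) and lower in 2 (9.09%), 8 and 2 after rescaling. Over all genes tested 6.26% were higher and 22.8% lower. The haemoglobin rows together had 7760 to 9960 TPM in BW4 tanks, against 4900 to 6790 TPM in BW3 tanks. A minor beta chain, hbb2 (LABE_00059858), rose by 2.82 ± 0.39 (adjusted p = 2.68e-06), to 11, 19 and 23.8 TPM against 0.307, 1.93 and 3.35 TPM, and reached a mean of 1340 TPM at BW5. The main beta row (LABE_00055754) had 3710, 3970 and 4880 TPM at BW4 against 2380, 2700 and 3330 TPM at BW3. Its difference of 0.57 ± 0.182 was called (adjusted p = 0.0175), and was not without tank B5, B7, B8 or B10 (adjusted p of 0.073, 0.063, 0.0599 and 0.0571). The anion exchanger slc4a1 (LABE_00013767) and the carbonic anhydrase cahz (LABE_00048629) of red cells rose, by 0.83 ± 0.16 and 0.58 ± 0.15, and the membrane skeleton gene EPB41 (LABE_00023233) fell by 0.66.

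Of 29 T-cell and thymus rows, 4 rose (13.8%) and 3 fell (10.3%), 4 and 1 after rescaling. Of 32 B-cell rows 2 rose (6.25%) and 3 fell (9.38%), 3 and 2 after rescaling. Over all genes tested 6.26% rose and 22.8% fell. The recombinases rag1 (LABE_00002509) and rag2 (LABE_00002510), which assemble antigen receptors, differed by −0.05 ± 0.15 and 0.05 ± 0.12 at levels near 0. The means of rag1 and rag2 at BW6 were 5.39 and 2.84 TPM. CCL25, a chemokine that draws lymphocyte precursors to thymus and gut, rose in both rows. LABE_00026307 had 24.7, 28 and 34.2 TPM at BW4 against 8.81, 16.8 and 18.2 TPM at BW3 (0.95 ± 0.18), and LABE_00000745 had 64.8, 82.2 and 104 TPM against 26.2, 45.3 and 55.9 TPM (0.91 ± 0.15). The thymocyte regulator Tox (LABE_00000922), which is also expressed in the nervous system, fell by 0.69. Runx3 (LABE_00038205) was higher by 0.27 ± 0.09, and lost the call in a fit of BW3 and BW4 alone (adjusted p = 0.108), with the tank as a block in a fit of these stages alone (0.103) or without tank B6, B7 or B10 (0.117, 0.125 and 0.0973). Cd81 (LABE_00005592), part of the B-cell coreceptor and found on many cells, rose by 0.58 ± 0.11. The plasma cell regulator Prdm1 (LABE_00031441) was called lower by 0.40, and not after rescaling (adjusted p = 0.0676). Its second row, PRDM1 (LABE_00056423), was called lower by 0.41, and not without tank B8 or B9 (adjusted p of 0.0976 and 0.0543).

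The antigen presentation and interferon lists held rises at low levels. Antigen presentation rose in 7 of 26 rows and fell in none (8 and 0 after rescaling). nlrc5 (LABE_00029372), the activator of class I genes in mammals, rose by 1.30 ± 0.12 (adjusted p = 1.36e-09), to 5.33, 6.22 and 7.36 TPM against 1.44, 1.96 and 2.77 TPM. CD74 (LABE_00050764), the invariant chain of class II, rose by 1.01 ± 0.26 and the immunoproteasome subunit Psmb8 (LABE_00065432) by 0.70 ± 0.16, Psmb8 being not called with 0.1 added in place of 1 (adjusted p = 0.0735). Interferon genes rose in 7 of 40 rows and fell in none (11 and 0 after rescaling), and in 4 under the stricter filter. In control tanks alone 7 were called higher and 1 lower, and in plankton tanks alone 1 and 0. Irf7 (LABE_00002552), a transcription factor of the interferon response, rose by 0.73 ± 0.09 to 2.42, 2.82 and 3.69 TPM, against 0.676, 1.45 and 2 TPM. HERC6 (LABE_00028214) rose by 0.47 ± 0.10 at about 1 TPM or less. IFI44L (LABE_00077712) was higher by 0.63 ± 0.17, and not called without tank B6 (adjusted p = 0.0741). HERC6 and IFI44L were not called in plankton tanks alone (adjusted p of 0.351 and 0.105).

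Among 47 myeloid rows 7 rose (14.9%) and 5 fell (10.6%), 8 and 1 after rescaling. The shares over all genes tested were 6.26% and 22.8%. MMP9 (LABE_00044157), a matrix protease of neutrophils and of bone-resorbing cells, rose by 2.31 ± 0.16 (adjusted p = 2.54e-12), to 11.1, 13.1 and 14.7 TPM against 0.598, 1.92 and 3.35 TPM. CXCL8 (LABE_00032303), a chemokine for neutrophils, rose by 1.40 ± 0.21, to 9.5, 13.8 and 19.4 TPM against 2.93, 4.63 and 7.28 TPM. Cybb (LABE_00038894), of the phagocyte oxidase, was called lower (−0.58 ± 0.18), and not after rescaling (adjusted p = 0.0921), without tank B5 (0.114) or without the BW3 pools of tank B5 (0.0596). The rises were 4 without tank B7 or B10, and the falls 1 to 3 without tank B5, B6, B7, B9 or B10, and 2 without the BW3 pools of tank B5. Of 52 inflammation rows 7 rose (13.5%) and 8 fell (15.4%), 8 and 5 after rescaling. Here the rises were 3 without tank B7 or B10 and the falls 4 or 5 without tank B5, B8, B9 or B10. TNFAIP6 (LABE_00024059), a hyaluronan-binding protein, rose by 0.71 ± 0.09 and the receptor Il17re (LABE_00008093) fell by 0.57. The inhibitor Nfkbia (LABE_00034394) was called lower by 0.24, and not after rescaling (adjusted p = 0.561), with the tank as a block in a fit of these stages alone (0.0603), without tank B5, B6, B8 or B9 (0.0658, 0.0795, 0.0541 and 0.133) or without the BW3 pools of tank B5 (0.0518). The chemokine CXCL14 (LABE_00061556) was called lower by 0.52, and not without tank B5, B8, B9 or B10 (adjusted p of 0.0736, 0.0777, 0.087 and 0.0847). Chitinases and lysozymes rose in 4 of 20 rows and fell in none (4 and 0 after rescaling, 2 and 0 without pool B9 R2 of BW3). CHIT1 (LABE_00071115), a chitinase, rose by 1.06 ± 0.17 to 1.68, 2.44 and 3.01 TPM, against 0.297, 0.583 and 0.912 TPM. Of the 2 Lysozyme g rows, LABE_00057352 rose by 0.79 ± 0.20, and LABE_00074663 was higher by 0.97 ± 0.30, and not called without tank B5 or B6 (adjusted p of 0.136 and 0.0501) or without pool B9 R2 of BW3 (0.0878).

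Keratins of the skin and other surfaces were split, at a sum that overlapped between stages. The keratin and skin list summed to 3390 to 5010 TPM at BW4, against 3310 to 4780 TPM at BW3. In it 11 of 56 rows rose (19.6%) and 9 fell (16.1%), 20 and 6 after rescaling. The shares over all genes tested were 6.26% and 22.8%. KRT8 (LABE_00056049) and krt18 (LABE_00056048), which pair in simple epithelia, fell by 2.16 (SE 0.19) and 2.04 (SE 0.16). KRT8 had 4.79, 7.24 and 9.37 TPM at BW4 against 17.6, 35 and 51.7 TPM at BW3, and krt18 had 7.72, 10.4 and 13.7 TPM against 34.8, 47.6 and 61.7 TPM. These rows were chosen among genes whose tanks did not overlap between the stages. Of 9 rows named for keratin 8 or 18, 5 were called lower and 1 higher. Their sum overlapped, at 834 to 1310 TPM in BW4 tanks against 723 to 1180 TPM in BW3 tanks. The most abundant of the 9, a krt8 row, had a higher median at BW4 and did not pass. The rise, and 1 of the falls, lost the call in several alternatives. Krt42 (LABE_00033801) rose by 1.29 ± 0.21 to 9.32, 14.4 and 21.2 TPM against 4.02, 4.68 and 8.11 TPM, and the junction proteins desmoplakin, DSP (LABE_00004760), and plectin, Plec (LABE_00001432), by 0.93 ± 0.14 and 0.36 ± 0.08. The rises of this list were 6 or 7 without tank B6, B7, B9 or B10. In control tanks alone 13 were called higher and 5 lower, and in plankton tanks alone 2 and 8. DSP and Plec were not called in plankton tanks alone (adjusted p of 0.11 and 0.271).

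Of 42 claudins, which seal the gaps between epithelial cells, 7 fell (16.7%) and 4 rose (9.52%), 6 and 4 after rescaling. The shares over all genes tested were 22.8% and 6.26%. cldnd (LABE_00019609) fell by 1.25, cldn7a (LABE_00039162) by 1.05 and CLDN5 (LABE_00036182), the claudin of vessel walls in mammals, by 0.87. Cldn4 (LABE_00045799) was higher by 0.41 ± 0.14, and lost the call without tank B5, B6, B7, B9 or B10 (adjusted p of 0.0546, 0.0835, 0.0527, 0.0799 and 0.0838). Ionocyte and gill genes fell in 18 of 46 rows (39.1%) and rose in 3 (6.52%). After rescaling 6 fell and 3 rose. The proton pump subunits ATP6V1A (LABE_00015116) and atp6v1c1a (LABE_00012220) were lower by 0.34 and 0.40, ATP6V1A not being called after rescaling (adjusted p = 0.0535). Carbonic anhydrase 4 was split, with CA4 (LABE_00002120) higher by 0.87 ± 0.20 and Ca4 (LABE_00049244) lower by 1.09. Of 18 mucin and goblet cell genes 2 rose (11.1%) and 1 fell (5.56%), 3 and 1 after rescaling. agr2 (LABE_00041039), a chaperone of mucin-making cells, rose by 0.92 ± 0.14 to 254, 339 and 386 TPM, against 138, 174 and 194 TPM at BW3. The mucin MUC5B (LABE_00005601) was called higher by 0.36 ± 0.12, and not without tank B5, B6 or B7 (adjusted p of 0.0552, 0.073 and 0.0699). MUC12 (LABE_00074096), a membrane mucin, was called lower by 0.60, and not without tank B5, B8 or B10 (adjusted p of 0.0682, 0.0563 and 0.0773).

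Pigment genes fell in 7 of 42 rows (16.7%) and rose in 4 (9.52%), 5 and 7 after rescaling. The shares over all genes tested were 22.8% and 6.26%. Gch1 (LABE_00040250), GTP cyclohydrolase, which starts the synthesis of pteridine pigments and of biopterin, rose by 2.40 ± 0.18 (adjusted p = 2.17e-11), to 297, 378 and 525 TPM against 38.4, 72.9 and 112 TPM. Its mean was 271 TPM at BW5, and BW4 was the highest of its 7 stage means. PNP (LABE_00028880), of purine salvage, fell by 0.64 and the melanocyte channel Trpm1 (LABE_00061255) by 0.37. The melanin enzyme DCT (LABE_00017504) was called lower (−0.78 ± 0.26), and not without tank B5, B8 or B10 (adjusted p of 0.108, 0.0777 and 0.103) or without the BW3 pools of tank B5 (0.0533).

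Clock genes were lower in 22 of 44 rows and higher in 6 (21 and 7 after rescaling), with a median of −0.38. Nr1d1 (LABE_00072470), a repressor in the negative arm of the clock, had 3.22, 6.45 and 9.65 TPM at BW4 against 16.8, 20.6 and 32.5 TPM at BW3 (−1.72 ± 0.20, adjusted p = 1.04e-07). BHLHE40 (LABE_00016190), another repressor, fell by 1.59, to 5.56, 6.97 and 10.7 TPM against 17, 18.4 and 53.3 TPM. HLF (LABE_00041194), an activator of clock output, fell by 1.38 and RORB (LABE_00016602), a nuclear receptor of retina and brain, rose by 0.93 ± 0.10. The hour of sampling is not given in the sources used here, so its part in these differences was not tested. Xenobiotic and antioxidant genes fell in 16 of 108 rows (14.8%) and rose in 9 (8.33%), 10 and 14 after rescaling. The shares over all genes tested were 22.8% and 6.26%. The rises of this list were 5 without tank B6, B7, B9 or B10. CYP2J2 (LABE_00025949) and 2 cyp3a40 rows, cytochromes that oxidise lipids and foreign compounds, fell by 1.28, 1.07 (LABE_00027666) and 0.81 (LABE_00047508), and the conjugating enzyme Ugt1a2 (LABE_00047533) rose by 0.79 ± 0.16. Heat shock genes fell in 13 of 99 rows (13.1%) and rose in 9 (9.09%). After rescaling 7 fell and 20 rose, so that the balance of the list turned with the scale. The falls were 8 without tank B5. The chaperone hsp90ab1 (LABE_00006755) fell by 0.51 to 649, 669 and 726 TPM against 869, 959 and 1050 TPM, and Hsf2 (LABE_00061811), a heat shock factor, by 0.49. The co-chaperone DNAJB6 had 1 row higher by 0.41 ± 0.08 (LABE_00051263) and 1 lower by 0.33 (LABE_00000781).

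The genes with the largest changes included others outside the lists. Ladderlectin (LABE_00055130), a C-type lectin known from salmonid plasma, had 5.17, 15.4 and 26 TPM in BW4 tanks, against 0, 0 and 0.1 TPM in BW3 tanks. It was thus listed at 0 in 5 of 6 BW3 tanks, and its difference of 3.83 ± 0.20 depends on the added 1 (6.92 with 0.1 added). Mannose-specific lectin (LABE_00015822) rose by 2.43 ± 0.21 to 783, 1240 and 1790 TPM, against 140, 223 and 339 TPM. es1 (LABE_00014354), a mitochondrial protein known from zebrafish cones, rose by 3.03 ± 0.18 to 3.75, 13.6 and 17.2 TPM, against 0.065, 0.385 and 0.729 TPM. NNT (LABE_00030831), which makes NADPH in mitochondria, rose by 2.72 ± 0.12 to 39.4, 42.1 and 46.2 TPM, against 3.19, 6.08 and 8.22 TPM. Otospiralin, an inner ear protein in mammals, had 1 row that rose and 1 that fell, and the falling row still had the higher median at BW4. OTOS (LABE_00058707) rose by 2.71 ± 0.36 to 5.77, 11.2 and 30.2 TPM against 0, 0.946 and 3.24 TPM, and Otos (LABE_00051719) fell by 3.02 (SE 0.26) to 7.27, 13.2 and 32.3 TPM against 82.7, 110 and 173 TPM.

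Among the falls, hceb (LABE_00089949), named for a hatching enzyme that digests the egg envelope, had 6.56, 21.1 and 32.5 TPM at BW4 against 58.2, 162 and 216 TPM at BW3 (−2.91 ± 0.24, adjusted p = 1.42e-10). Of 9 tested rows with hatching enzyme names 2 were called lower and 3 higher. The most abundant, lce (LABE_00056493), rose by 0.90 ± 0.172 to 2460, 5020 and 7640 TPM at BW4, against 2030, 2570 and 3470 TPM at BW3 (adjusted p = 0.000187). It was not called in control tanks alone (0.27, adjusted p = 0.498). calcoco1 (LABE_00038357), a receptor of autophagy, fell by 2.43 (SE 0.43) to 1.71, 4.62 and 9.04 TPM, against 11.1, 32.4 and 46.9 TPM. It was not called in plankton tanks alone (adjusted p = 0.174). Its mean was 14.7 TPM at BW5 and 195 TPM at BW6. Myocilin, MYOC (LABE_00004147), a secreted protein of eye and connective tissue, fell by 1.80 (SE 0.20), to 2.02, 2.7 and 3.3 TPM against 7.61, 11.7 and 23.1 TPM.

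**Figure D4:**
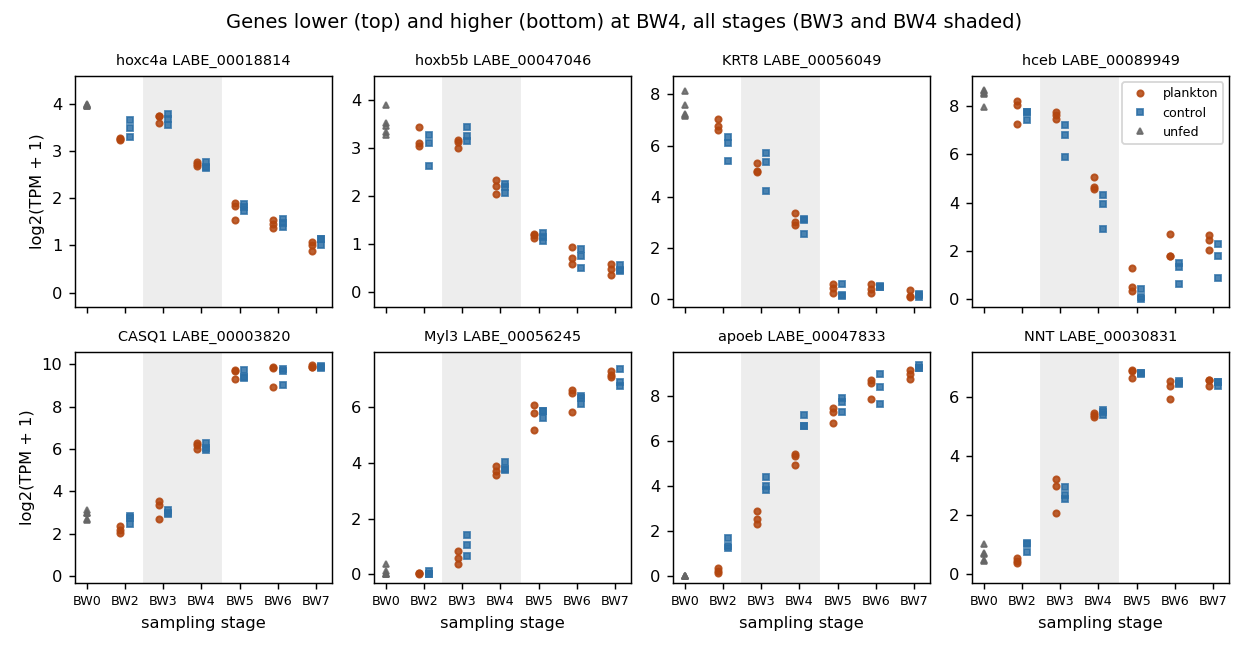
Each point is 1 tank (at BW0, 1 incubator pool) on the log2(TPM + 1) scale against sampling stage, with BW3 and BW4 shaded. In the top row hoxc4a, hoxb5b, KRT8 and hceb were lower at BW4 than at BW3 in all tanks, and in the bottom row CASQ1, Myl3, apoeb and NNT were higher in all tanks. Apart from the hox genes, these rows were chosen among genes whose tanks did not overlap between the stages.

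The step was compared with the one after it, BW5 minus BW4, in the same fit. The 2 steps share the BW4 tanks. Their changes differed for 1894 of 22028 genes (8.60%). Red-sensitive opsin (LABE_00074842) gained 5.91 in the first step and 2.34 ± 0.13 in the second (adjusted p of the difference 1.64e-12). Some named genes with a called rise at BW4 had a next difference near or below 0, and 4 examples follow. chac1 had 2.06 and then 0.01 (adjusted p of the difference 7.15e-06). MMP9 had 2.31 and then −0.20, the MATN3 row LABE_00031688 had 2.33 and then −0.06, and Gch1 had 2.40 and then −0.54, with an adjusted p for the difference of 2.43e-07, 9.7e-07 and 1.56e-07. nlrc5 rose by 1.30 and then fell by 1.09 (adjusted p of the difference 2.07e-09), and the sterol desaturase Sc5d (LABE_00026540) rose by 0.88 and then fell by 1.34 (1.25e-07). The other way round, hbb2 (LABE_00059858) gained 2.82 and then 5.45 (0.012), and COX7A2 gained 2.02 and then 4.61 (0.00122). These examples were picked after their values were seen.

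A last comparison asked whether the change from BW3 to BW4 differed between the diets. It did for 12 of 22028 genes (0.0545%), 8 with a higher change in plankton tanks (0.0363%) and 4 with a lower one (0.0182%), and 1251 genes had an unadjusted p under 0.05. Plankton tanks were sampled at 28 and 18 dph and control tanks at 26 and 16 dph. Diet and age at sampling therefore cannot be told apart here. SLC5A3 (LABE_00048702), which imports the osmolyte inositol, averaged 5.76 ± 0.251 TPM at BW4 and 5.46 ± 1.20 TPM at BW3 in plankton tanks, and 20.1 ± 2.11 TPM at BW4 and 4.47 ± 1.59 TPM at BW3 in control tanks (SD, n = 3 each). Its step in plankton tanks was lower by 1.91 (SE 0.30, adjusted p = 0.00583). chac1 (LABE_00013226) had a mean of 296 ± 67.2 TPM at BW4 and 128 ± 40.0 TPM at BW3 in plankton tanks, and of 1460 ± 172 TPM at BW4 and 195 ± 46.8 TPM at BW3 in control tanks (difference of the steps −1.73 ± 0.32, adjusted p = 0.0222). The protease inhibitor Serpinb1b (LABE_00081993) gained 0.73 in plankton tanks and 2.00 in control tanks, and the differences of the kinase DCLK3 (LABE_00012185) were −0.05 and 1.20.

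All 8 genes with a higher step on plankton had a negative difference in control tanks. ectD (LABE_00043377) averaged 8.38 ± 2.02 TPM at BW4 and 10.7 ± 8.23 TPM at BW3 in plankton tanks, and 3.91 ± 0.44 TPM at BW4 and 64.4 ± 30.6 TPM at BW3 in control tanks (3.59 ± 0.66, adjusted p = 0.0207). EPX (LABE_00008768), a peroxidase of eosinophils in mammals, had 31.5 ± 4.58 TPM at BW4 and 24.4 ± 15.1 TPM at BW3 in plankton tanks, and 17.2 ± 2.21 TPM at BW4 and 94.6 ± 26.6 TPM at BW3 in control tanks (2.99 ± 0.57, adjusted p = 0.025). ENDOD1 (LABE_00036957) had 25.4 ± 4.18 TPM at BW4 and 16.6 ± 4.90 TPM at BW3 in plankton tanks, and 6.08 ± 0.101 TPM at BW4 and 18.7 ± 1.55 TPM at BW3 in control tanks. The steps of a second Slc6a19 row (LABE_00034449), the membrane protein TMC5 (LABE_00033880) and Peptide Y (LABE_00049925), a gut or brain peptide, were 0.30, 0.50 and 0.13 in plankton tanks and −1.68, −1.22 and −1.13 in control tanks. The other two genes have no name in the table (LABE_00021377 and LABE_00067595). Calls in this comparison were fragile, and 2 to 11 genes passed the threshold when single tanks were left out. Without tank B8, 1 of the 2 genes called was among these 12, and without tank B9 5 of 11. In a fit of BW3 and BW4 alone, 1 of 6 genes called (Serpinb1b) was among them. With the stages paired by tank in that fit none of the 12 passed (adjusted p of 0.135 to 0.454), and the 1 gene called was another. SLC5A3 was called in 14 of 16 alternatives, and the other genes in 4 to 12.

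**Figure D5:**
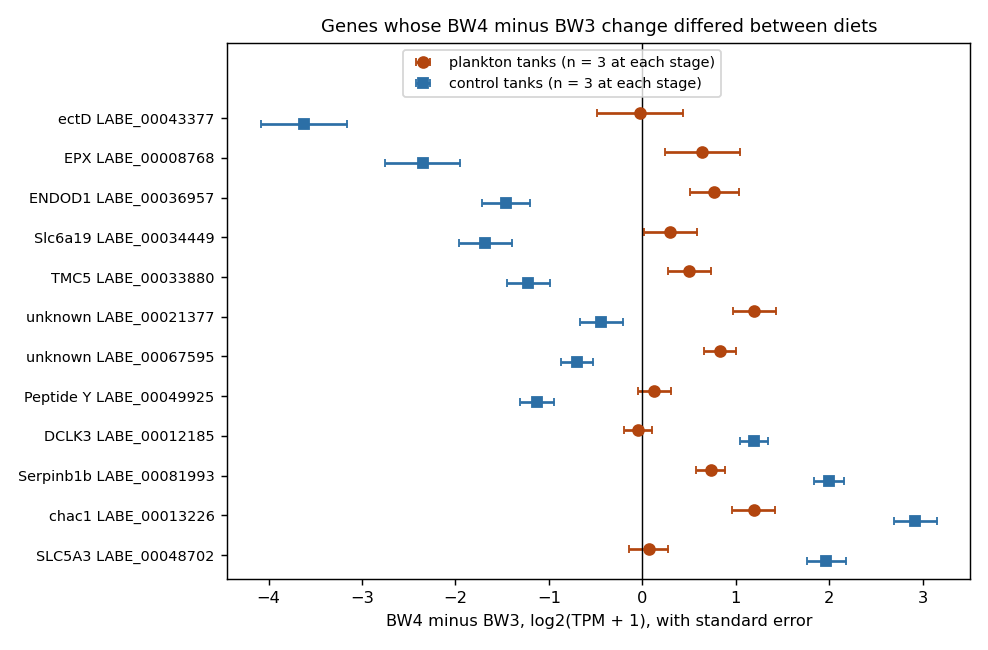
BW4 minus BW3 on the log2(TPM + 1) scale in plankton tanks (circles) and control tanks (squares), with standard errors, for the 12 genes whose change differed between diets. For the 8 genes at the top the control tanks lie lower, and for the 4 at the bottom they lie higher.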

How the data were processed

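Gene expression was measured by RNA sequencing of 77 pools, each of whole larvae. The authors deposited TPM per gene and pool, and each column sums to 1000000. The submitters' processing notes name Salmon and edgeR, without versions or roles, and name no transcriptome. TPM does not retain depth, so read depth is unknown and no counting interval is given. The table holds 29932 genes under the names used here, and 461 of the 6394 called genes are named unknown. Gene IDs were not paired with sequences.

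The 2 pools of each tank were averaged as log2(TPM + 1). Genes at 1 TPM or more in at least 3 of 41 libraries (tank means and unfed pools) entered 1 fit with limma 3.58.1 (R 4.3.3) over all 13 stage and diet groups, with an intensity trend, 28 residual and 3.61 prior degrees of freedom. Contrasts were BW4 minus BW3 with equal weight for the diets, the same in plankton minus control tanks, and BW4 minus BW3 against BW5 minus BW4. The scripts were tested on simulated data. The labels give the same 6 tanks at both stages and no RNA or sequencing batch. The BW3 pools of tank B5 are numbered R3 and R4 and titled in another style than the other pools of these stages, so they were also left out as an alternative. Deviations of a tank at the 2 stages correlated at −0.0673 to 0.0886, so the tank is a block only in an alternative. P-values rest on the spread within all 13 groups together, between tanks and, at BW0, between pools of 1 incubator. They do not rest on the tanks of BW3 and BW4 alone, except in the fit of these stages alone. A row can therefore miss the threshold although its tanks do not overlap between the 2 stages.

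The 40 gene lists were matched to gene names. The members and lists were chosen with earlier results of these data known, and false matches and names with over 20 copies were removed after names were seen. Named genes are the 10 largest rises and the 10 largest falls among called, named genes (mean over both stages of 5 TPM or higher, tanks of the stages apart), then up to 3 called members of each list in its main direction and 1 in the other, by smallest p, and rag1, rag2 and the opsins whatever their result. A few of these genes are not reported here. Rows of collagen, osteocalcin, matrilin, troponin, keratin, haemoglobin and hatching enzyme families were added after their values were seen. Alternatives were another pseudocount, other filters, median-ratio size factors, a fit of both stages alone, a tank block, pools as replicates, tanks or pools left out, and each diet alone. Figures were drawn with matplotlib 3.10.9.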

Additional observations from a re-analysis of the deposited data

Results flagged for a closer look

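Of 358 groups of 6 tanks (179 named genes at 2 stages), 18 held 1 tank apart from the other 5 by Dixon's test, close to the 1 in 20 that chance gives. At BW4, tank B9 had 3.75 TPM of es1 (others 9.27 to 17.2) and 21 TPM of rdh10a (17.2 to 18.4). Tank B7 had 367 TPM of RPL3 LABE_00020927 (302 to 319) and 1.07 TPM of Slc1a2 (2.35 to 3.07). Tank B6 had 194 TPM of ATP5L (215 to 224) and tank B8 446 TPM of Gamma-crystallin M2 (685 to 834).

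At BW3, tank B6 had 844 and 2220 TPM of the green-sensitive opsins LABE_00064356 and LABE_00064357 (others 471 to 578 and 1220 to 1410), 18 TPM of nefl (10.3 to 12) and 4.12 TPM of Slc1a3 (5.29 to 5.99). Tank B5 had 64.7 TPM of Slc6a19 LABE_00034446 (44.1 to 49.2), 5120 TPM of RPL6 (5730 to 5910) and 14 TPM of ldlr-a (21.2 to 26.1). Tank B9 had 26.2 TPM of CCL25 LABE_00000745 (41.8 to 55.9) and 11 TPM of ENDOD1 (17 to 20.1). Tank B7 had 5.69 TPM of TNMD (10.7 to 15.2), tank B8 8.11 TPM of Krt42 (4.02 to 5.03) and tank B10 0.1 TPM of Ladderlectin (0 in the others).

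Between diets, the change from BW3 to BW4 (plankton minus control, log2 scale) differed by a test of the difference itself for 12 genes. It was 3.59 for ectD, 2.99 for EPX, 2.23 for ENDOD1, 1.98 for Slc6a19 LABE_00034449, 1.73 for TMC5 and 1.26 for Peptide Y, and 1.64 and 1.53 for the unnamed LABE_00021377 and LABE_00067595. It was −1.91 for SLC5A3, −1.73 for chac1, −1.27 for Serpinb1b and −1.25 for DCLK3.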

How the results depend on the processing

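Rescaling by size factors gave 2498 genes higher and 2381 lower, and 3743 of the 6394 calls were shared with it. None of the 6394 was called in the opposite direction in any alternative run. Leaving out single tanks gave 930 to 1232 genes higher and 3692 to 4117 lower, control tanks alone 2953 lower, and plankton tanks alone 528 higher and 1766 lower. Of 232 gene rows followed through the alternatives, 43 lost the call with an unturned sign in control tanks alone and 67 in plankton tanks alone. Not all of these losses are given above. The difference between diets (12 genes) had counts of 6 with a pseudocount of 0.1 (all among the 12), 6 in a fit of BW3 and BW4 alone (1 among the 12), 1 with the tank as a block in that fit (0 among the 12), 90 with pools as replicates, 20 without the BW3 pools of tank B5 and 2 to 11 without single tanks (2 without B8 or B10, 4 without B6, 6 without B5, 7 without B7, 11 without B9). With the tank as a block in the fit of all stages it was 12, with 1362 genes higher and 4891 lower. The contrast with the next step gave 3694 genes with pools as replicates and 1005 to 1484 without single tanks (1005 without B9, 1048 without B6, 1154 without B10). All gene counts that leave out a tank have 5 tanks.

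Signs turned for few named genes, and the cause was not tested. The violet-sensitive opsin LABE_00063137 was at 0.00 with a pseudocount of 0.1, 0.12 after rescaling, 0.01 without the BW3 pools of tank B5, 0.07 without pool B9 R2 of BW3, 0.05 in plankton tanks and −0.14 to 0.23 without single tanks. Hadh was at 0.00 after rescaling, and LABE_00071645 at 0.00 in plankton tanks. LABE_00067595 was at −0.06 without pool B9 R2 and −0.04 to 0.17 without single tanks. Control tanks alone gave −0.70 for LABE_00067595, −0.44 for LABE_00021377, −0.07 for PLA2G1B LABE_00011185, −0.05 for CEL, −0.03 for Cpa1 and −0.01 for CELA2A LABE_00039922. Plankton tanks alone gave 0.64 for EPX, −0.05 for DCLK3, 0.50 for TMC5, 0.30 for Slc6a19 LABE_00034449, 0.77 for ENDOD1 and 0.13 for Peptide Y. TPM without counts gives no depth, so low levels carry an unknown counting error.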
